A study of Mus musculus with 6 samples.

Results

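Of genes that reached a set level in Control oocytes, 3 met a rule for low levels in mice that lack Rpa1 in the oocyte. These were St3gal5, Arid3a and Prr32, each below 0.5 of the lowest Control library in every library from those mice. They were chosen by their levels alone. The mean over the Control libraries had to be at least 10 CPM (a gene's count per 1000000 counts of its library), and the highest OcKO library had to be below 0.5 of the lowest Control library. Of 7667 genes at that Control level, counted after the symbol exclusions given next, 3 met the rule, which is 0.0391%. The whole table held 49315 genes. The rule leaves out symbols made of Gm and a digit or ending in Rik, and 5 genes by name. Of the 7 genes that met its numbers, 4 were left out in this way: Rpa1, Bik and a pair of genes with Gm symbols. Since levels in OcKO against Control chose the 3 genes, those levels are a description, with no test.

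The libraries were made from fully grown germinal vesicle (GV) oocytes, which are arrested in the first meiotic prophase with an intact nucleus. The groups were 3 mice with the Rpa1 oocyte-specific conditional knockout (OcKO) and 3 Control mice, all 4 to 5 weeks old and primed with PMSG, the hormone pregnant mare serum gonadotropin. A library held about 20 oocytes of 1 mouse, with the cumulus cells removed. Neither the Cre driver of the deletion nor the genotype of the Control mice is given in the sources used here. Rpa1 encodes the large subunit of the protein that coats single-stranded DNA.

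The deleted gene was low in each OcKO library. Rpa1 stood at 8.06, 4.22 and 7.66 CPM in OcKO replicates 1 to 3, against 149.6, 142.1 and 132.7 CPM in Control replicates 1 to 3. Libraries held 36280148 to 44575222 counts. All 10 oocyte markers were found, and their summed level was 31902 to 42067 CPM in OcKO and 35698 to 55018 CPM in Control. Markers of granulosa and cumulus cells summed to 94.7 to 128.8 CPM in OcKO and 64.8 to 114.1 CPM in Control, and those of blood and immune cells to 1.37 to 9.26 CPM in OcKO and 4.37 to 14.8 CPM in Control. Endothelial markers summed to 145.9 to 247.2 CPM in OcKO and 102.02 to 153.8 CPM in Control, led by Pecam1 at 108.3 CPM in OcKO and 96.2 CPM in Control. Markers of theca and stroma summed to 3.72 to 7.13 CPM in OcKO and 2.31 to 9.01 CPM in Control. The ranges of the groups overlapped for each of these 5 lists, none of which had a marker at 0 in every library. Some markers were near the floor, with less than 1 CPM in every library. These were 7 of 10 for blood and immune cells and 4 of 9 for theca and stroma. They were also 2 of 12 for granulosa and cumulus cells, 2 of 5 endothelial markers and 0 of 10 oocyte markers. Measures that did separate the groups were the share of counts from mitochondrially encoded genes, at 0.155 to 0.188% in OcKO and 0.0670 to 0.0807% in Control, and the number of genes with a count, at 19915 to 22393 in OcKO and 18330 to 19351 in Control. The two-sided exact permutation p was 0.1 for each of these measures, the smallest that 3 against 3 libraries allow, and their part in the levels below was not tested.

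The 3 genes belong to unrelated families. St3gal5 encodes GM3 synthase, a sialyltransferase of the Golgi that adds sialic acid to lactosylceramide and so makes GM3, the first of the gangliosides, which are sugar-bearing lipids of the cell surface. Arid3a encodes a DNA-binding protein with an ARID (AT-rich interaction) domain, known in mouse B cells as Bright, an activator of immunoglobulin heavy-chain transcription, and in human cells as a partner of E2F1. Prr32 is named for a proline-rich protein, and no role is given for it here.

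St3gal5 (ENSMUSG00000056091) was the most abundant of the 3. It lies on chromosome 6, at 72097592 to 72154571 on the plus strand of GRCm38, and its exons form 8 blocks. St3gal5 had 12.5, 14.7 and 18.1 CPM in OcKO replicates 1 to 3, against 57.9, 36.6 and 37.7 CPM in Control replicates 1 to 3. Each OcKO library was below each Control library, and Control replicate 1 stood above the other Control libraries. The means were 15.1 ± 2.79 CPM in OcKO and 44.1 ± 11.99 CPM in Control (SD, n = 3 each), so the OcKO mean was 34.2% of the Control mean. The log2 fold change from edgeR, which scales libraries by TMM (trimmed mean of M values), was -1.72 (SE 0.31). In pooled oocytes, fewer cells with a transcript and less of it per cell cannot be told apart, here or for the other genes.

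The promoter of St3gal5 is shown because it and that of Prr32 differ in base composition. The RefSeq table of 32851 promoters (GRCm38.p6) matched 2 of the 3 genes. Each entry runs from 250 bases before its own start site to 50 bases after it. For St3gal5 that site is not the first base of the gene given above. The St3gal5 entry is chr6:72097358-72097657 on the plus strand, in the direction of the gene. Capitals mark matches on either strand to the GC box, spelt GGGCGG, to the core of the LHX8 site, whose letters are TGATTG, and to the box named for its letters, CCAAT:
St3gal5: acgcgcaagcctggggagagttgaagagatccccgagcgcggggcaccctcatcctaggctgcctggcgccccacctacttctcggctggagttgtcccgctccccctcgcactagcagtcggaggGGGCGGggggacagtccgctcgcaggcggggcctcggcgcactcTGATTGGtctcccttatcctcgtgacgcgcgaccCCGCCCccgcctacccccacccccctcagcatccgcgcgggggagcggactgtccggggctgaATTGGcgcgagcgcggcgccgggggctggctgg
The window was 72.7% G or C, higher than 93.9% of all promoters in the table, and held 33 CG dinucleotides, against a median of 7. GGGCGG was found in 35.7% of all promoters, CCAAT in 37.4% and TGATTG in 14.0%, and 1 of the CCAAT matches overlaps the TGATTG match. Of 13 motifs searched, 5 had a match. The others matched were TGACG, found in 20.8% of all promoters, and TTGGCGC, the core of an E2F site, in 2.45%, which overlaps the second CCAAT match.

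Arid3a (ENSMUSG00000019564) was among the less abundant of the 7667 genes in Control too, where 8.86% of them were lower. It lies on chromosome 10, at 79927043 to 79955018 on the plus strand, with exons in 12 blocks. Arid3a had 3.15, 5.29 and 2.07 CPM in OcKO replicates 1 to 3, against 17.5, 12.4 and 11.5 CPM in Control replicates 1 to 3. The highest OcKO library, replicate 2, was below the lowest Control library, replicate 3, and the counts behind these levels were 75 to 236 in OcKO and 422 to 659 in Control. The means were 3.50 ± 1.64 CPM in OcKO and 13.8 ± 3.22 CPM in Control (SD, n = 3 each), an OcKO mean of 25.4% of Control. The log2 fold change was -2.12 (SE 0.58).

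Prr32 (ENSMUSG00000037086) had the lowest OcKO mean of the 3 in CPM, and its OcKO SD was the largest of the 3 as a share of the mean. It is a gene of 2 exon blocks on chromosome X, at 45090904 to 45092791 on the plus strand. Prr32 had 0, 224 and 104 counts in OcKO replicates 1 to 3, against 443, 597 and 431 counts in Control replicates 1 to 3. These are 0, 5.03 and 2.87 CPM in OcKO and 11.8, 14.4 and 11.8 CPM in Control. No read was counted in OcKO replicate 1, which allows a level of up to 0.0711 CPM at 3 counts, while the other OcKO libraries held well over that. The means were 2.63 ± 2.52 CPM in OcKO and 12.6 ± 1.53 CPM in Control (SD, n = 3 each), an OcKO mean of 20.8% of Control. The log2 fold change was -2.43 with an SE of 1.44, and it was -1.85 (SE 0.59) without OcKO replicate 1.

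The Prr32 promoter, chrX:45090654-45090953 on the plus strand (RefSeq, GRCm38.p6), is shown with capitals on matches to TTTGAA, the CHR (cell cycle genes homology region) element, on either strand:
Prr32: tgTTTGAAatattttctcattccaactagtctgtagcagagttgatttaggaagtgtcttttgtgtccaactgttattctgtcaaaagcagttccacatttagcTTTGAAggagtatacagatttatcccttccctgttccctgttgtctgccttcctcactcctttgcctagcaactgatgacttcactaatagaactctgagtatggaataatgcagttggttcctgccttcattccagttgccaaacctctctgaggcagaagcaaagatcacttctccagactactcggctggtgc
It was 42.7% G or C, higher than 15.6% of all promoters, and held 1 CG dinucleotide. TTTGAA was found in 17.9% of all promoters. The 1 other motif of the 13 with a match was CANNTG, the general E-box, found in 72.3% of all promoters. No motif matched both windows.

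**Figure D1:**
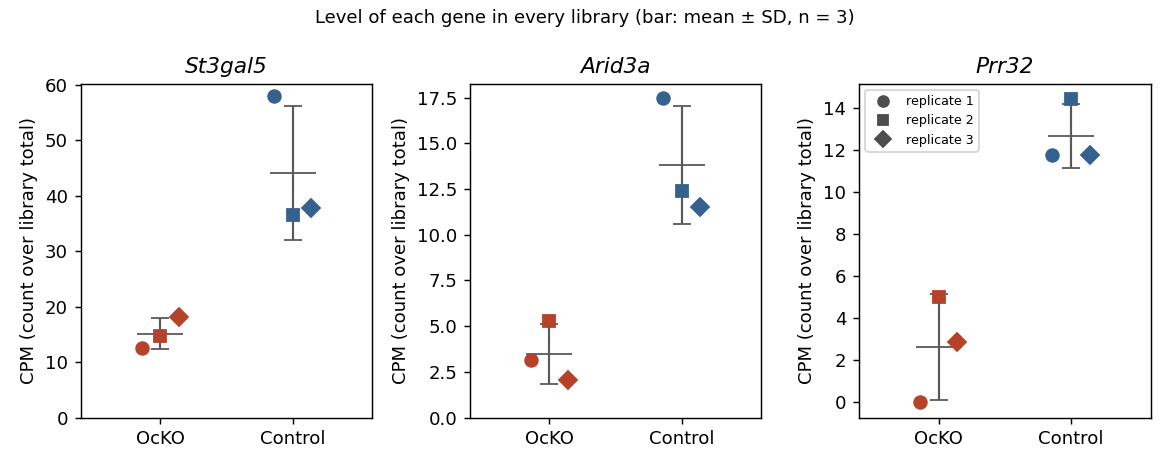
Level of St3gal5, Arid3a and Prr32 in each library, as CPM on a linear axis, with OcKO at left and Control at right; marker shapes give the replicate number and bars the mean ± SD (n = 3). All 3 OcKO points lie below all Control points for each gene, and Prr32 is at 0 in OcKO replicate 1.

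Per length of exon, the order of the 3 genes was the same in both groups by their means. St3gal5 averaged 5.76 ± 1.07 CPM per kb in OcKO and 16.8 ± 4.58 CPM per kb in Control. Prr32 averaged 2.37 ± 2.27 CPM per kb in OcKO and 11.4 ± 1.38 CPM per kb in Control. Arid3a averaged 0.630 ± 0.295 CPM per kb in OcKO and 2.48 ± 0.580 CPM per kb in Control (SD, n = 3 each). The Control libraries of neighbouring genes in this order did not overlap, nor did those of St3gal5 and Prr32 in OcKO. In OcKO, Arid3a lay between 0.372 and 0.952 CPM per kb and Prr32 between 0 and 4.53, so these overlapped.

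No library was lowest for all 3 genes. Among OcKO libraries, replicate 1 was lowest for St3gal5 and Prr32 and replicate 3 for Arid3a, while replicate 2 was highest for Arid3a and Prr32 and replicate 3 for St3gal5. The SD was 18.5% of the mean for St3gal5, 46.9% for Arid3a and 95.8% for Prr32 in OcKO, against 27.2%, 23.4% and 12.1% in Control. By mean CPM among the 7667 genes, St3gal5 ranked 6921 in OcKO and 4182 in Control. Arid3a ranked 7660 in OcKO and 6988 in Control, and Prr32 ranked 7665 in OcKO and 7170 in Control. The 7667 genes were taken by their Control mean and these 3 by a low OcKO level, so low OcKO ranks follow from the choice.

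The threshold of 0.5 had genes close to it on both sides. The highest OcKO level over the lowest Control level was 0.43 for Prr32, 0.46 for Arid3a and 0.49 for St3gal5. Just outside were Calr3 at 0.52, Prr18, Ppef1 and Bicral at 0.53 each and Rit2 at 0.55. Calr3, which encodes a calreticulin-like chaperone of the endoplasmic reticulum known from mouse testis, had 29.5, 49.02 and 24.9 CPM in OcKO replicates 1 to 3, against 102.2, 94.1 and 103.4 CPM in Control replicates 1 to 3. Its highest OcKO library was replicate 2, and its lowest Control library was replicate 2.

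Prr18, another gene named for a proline-rich protein, averaged 6.45 ± 2.32 CPM in OcKO and 21.5 ± 6.16 CPM in Control. Ppef1, which encodes a serine/threonine phosphatase with calcium-binding EF hands, averaged 9.01 ± 2.19 CPM in OcKO and 26.05 ± 6.18 CPM in Control. Bicral, a paralogue of the chromatin remodelling subunit Bicra, averaged 3.15 ± 0.741 CPM in OcKO and 10.9 ± 6.01 CPM in Control, and 772 of its exonic bases are shared with Gm26904 on the opposite strand. Rit2, which encodes a Ras-like GTPase known from neurons, averaged 7.53 ± 0.490 CPM in OcKO and 17.9 ± 4.82 CPM in Control (SD, n = 3 each). These 5 genes thus had OcKO means of 29.0 to 42.1% of Control, against 20.8 to 34.2% for the 3 below the threshold.

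**Figure D2:**
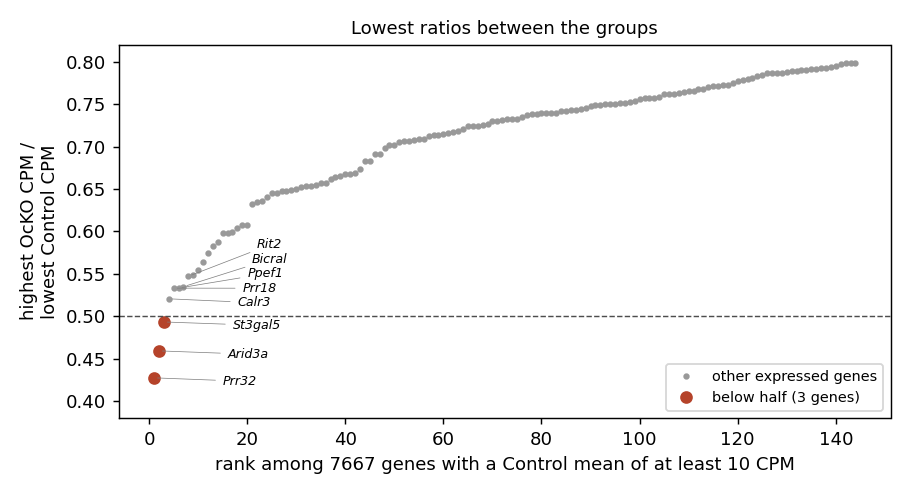
Highest OcKO CPM over lowest Control CPM for the 144 genes with the lowest values, by rank, on linear axes; red points are the 3 genes below the dashed line at 0.5 and grey points other genes with a Control mean of at least 10 CPM. The values step across the line from 0.49 for St3gal5 to 0.52 for Calr3. This step is smaller than those among the red points and wider than the later ones.

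Few genes came near this level. The ratio was under 0.4 for 0 of the 7667 genes, under 0.6 for 17 and under 0.7 for 48. OcKO libraries were below all Control libraries for 565 of them, which is 7.37%. The 7667 leave out genes by symbol, and among those left out Rpa1 was at 0.061 and Gm498 at 0.301. In the other direction, 144 genes had a mean of at least 10 CPM in OcKO and their lowest OcKO library above 2 times their highest Control library. Of these, 29 also had a Control mean of at least 10 CPM and so were among the 7667. Both directions were counted on CPM, without TMM scaling, which lowers OcKO levels relative to Control. The doubled genes were not counted again under other scalings. Leaving out a library loosens the rule, so the same 3 genes remained each time and others joined them. Dropping OcKO replicate 1, 2 or 3 gave 16, 43 or 20 genes in that order. Dropping Control replicate 1, 2 or 3 gave 14, 10 or 61 genes in that order.

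Scaling moved the count too. TMM factors were 1.02 to 1.12 in OcKO and 0.917 to 0.963 in Control, so that TMM scaling lowers OcKO levels relative to Control. With TMM-scaled CPM 8 genes met the rule: the same 3 with Calr3, Phlpp1, Ppef1, Prr18 and Rit2. Phlpp1, which encodes a phosphatase of the kinase AKT, was not among the 7667 genes. Its Control mean reached 10 CPM only with TMM scaling. With DESeq2 size factors 7 did: the same 3 with Bicral, Calr3, Ppef1 and Prr18.

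Of these 3 genes, the fit across all 16060 tested genes called 0 lower in edgeR's quasi-likelihood test (Benjamini-Hochberg adjusted p under 0.05), where it called 0.00623% of all tested genes lower, a single gene, Rpa1. At an unadjusted p under 0.05 it placed 2 of the 3 on the lower side, St3gal5 and Arid3a, against 5.21% of all tested genes. DESeq2 called the same 2 lower, against 1.69% of all tested genes, and limma voom called 0, against 0.00623%. The genes were picked for this contrast, so these counts support nothing about them. Over the 13 alternative fits, whose sign the choice of genes fixes, the log2 fold change ranged from -1.82 to -1.50 for St3gal5, from -2.54 to -1.83 for Arid3a and from -4.68 to -1.85 for Prr32, whose lowest value came from limma voom.

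**Figure D3:**
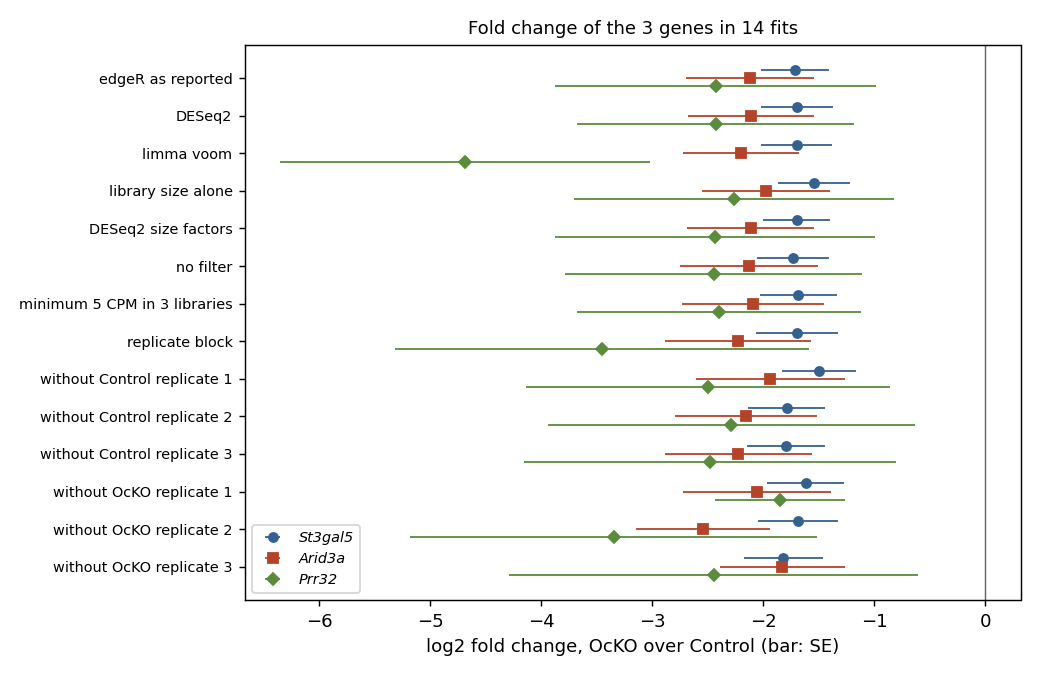
Log2 fold change of OcKO over Control (x axis, linear in log2 units) with its SE for St3gal5, Arid3a and Prr32 in the edgeR fit and 13 alternative fits (rows). St3gal5 stays between -1.82 and -1.50 in the alternatives, and Prr32 has the widest bars in most rows and narrower ones without OcKO replicate 1.

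In position and structure the 3 genes differed from each other. They lay on 3 chromosomes, with none on chromosome 11, which holds Rpa1 and 7.84% of the 7667 genes. Their spans were 57.0 kb for St3gal5, 28.0 kb for Arid3a and 1.89 kb for Prr32, against a median of 28.2 kb over the 7667 genes. Their exonic lengths were 2618, 5562 and 1110 bases, against a median of 4392 bases. None shared exonic bases with another gene of the deposited annotation. Of 16 gene lists of oocyte, cell cycle, chromatin, repair and signalling functions and 14 symbol families, 0 held any of the 3. Only 755 of the 7667 genes at this Control level were on any of the 16 lists, so this absence says little.

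The nearest tested genes on either side did not pass the edgeR test. Those of St3gal5 were Polr1a, at 112.7 kb, and Usp39, at 164.1 kb. Beside St3gal5, Polr1a, a subunit gene of RNA polymerase I, averaged 82.5 ± 9.69 CPM in OcKO and 96.6 ± 37.3 CPM in Control (log2 fold change -0.39, SE 0.27, adjusted p = 0.696). Usp39, a splicing factor gene on the other side, averaged 118.1 ± 19.8 CPM in OcKO and 85.7 ± 26.2 CPM in Control (log2 fold change 0.28, SE 0.27, adjusted p = 0.789; SD, n = 3 each).

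Beside Arid3a, at 5.13 kb, Wdr18 averaged 92.0 ± 30.2 CPM in OcKO and 48.3 ± 26.4 CPM in Control (log2 fold change 0.77, SE 0.45, edgeR adjusted p = 0.615). Kiss1r, the kisspeptin receptor gene at 4.77 kb on the other side, averaged 2.10 ± 1.68 CPM in OcKO and 3.00 ± 1.28 CPM in Control. The neighbours of Prr32 were Dcaf12l1, at 300.7 kb, and Gm14608, more than a megabase away, with means under 3 CPM in both groups. Genes of chromosome X held 2.36 to 2.93% of counts in OcKO and 2.84 to 2.89% in Control (two-sided exact permutation p = 0.4). Their median log2 fold change was -0.08 over 601 tested genes, against 0.01 over all tested genes.

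No other tested gene of ganglioside synthesis passed the edgeR test, which called 0.00623% of all tested genes lower and 0.137% higher. DESeq2 called 1.69% of them lower and 2.97% higher, and limma voom 0.00623% lower and 0.0% higher. This list and those of the families below were drawn up after the 3 genes were known. Of 9 other tested genes of ganglioside synthesis, edgeR called 0, DESeq2 0 and limma voom 0, 0 passed an unadjusted p of 0.05 in edgeR, and 3 had negative log2 fold changes. Their median log2 fold change was 0.39, the value of B4galnt1, whose Control mean was 0.551 CPM. Only 4 genes of the list, St3gal5 included, had a Control mean of at least 10 CPM. Besides St3gal5 these were B4galt5 (log2 fold change -0.28), B4galt6 (-0.79) and St6galnac3 (0.92). The rest were below the Control level that the rule asks for. Ugcg, which makes glucosylceramide, had 11.3, 10.4 and 13.6 CPM in OcKO replicates 1 to 3, against 4.70, 10.6 and 8.25 CPM in Control replicates 1 to 3. The groups overlapped.

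Of the enzymes that make lactosylceramide, the substrate of GM3 synthase, B4galt6 had 14.3, 23.4 and 24.7 CPM in OcKO and 45.3, 24.8 and 26.3 CPM in Control (edgeR log2 fold change -0.79 with SE 0.36, adjusted p = 0.487). Its OcKO libraries lay below its Control libraries by a narrow margin. B4galt5 averaged 42.4 ± 8.19 CPM in OcKO and 45.7 ± 12.4 CPM in Control, and its groups overlapped. Of the enzymes that use GM3, St8sia1 averaged 7.36 ± 3.29 CPM in OcKO and 2.47 ± 2.72 CPM in Control, and B4galnt1 averaged 0.828 ± 0.666 CPM in OcKO and 0.551 ± 0.144 CPM in Control (SD, n = 3 each). Neither was called.

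Around this pathway, edgeR, DESeq2 and limma voom called 0 of 11 ceramide synthesis genes, 0 of 10 ganglioside breakdown genes, 0 of 6 genes of sialic acid supply and 0 of 11 other sialyltransferases. At an unadjusted p under 0.05, which 5.21% of all tested genes passed lower and 5.93% higher, edgeR had 1 ceramide gene lower and 1 higher. These were Cers6, a ceramide synthase, and Sptlc1, a subunit of the enzyme that begins the pathway, and the other 3 lists had none. Cers6 averaged 285.9 ± 43.1 CPM in OcKO and 376.02 ± 35.1 CPM in Control (adjusted p = 0.323), and Sptlc1 averaged 186.7 ± 20.3 CPM in OcKO and 120.9 ± 12.1 CPM in Control (edgeR adjusted p = 0.376; SD, n = 3 each). The sialyltransferase with the highest mean CPM, St6gal1, which acts on glycoproteins, averaged 78.7 ± 28.6 CPM in OcKO and 62.3 ± 20.4 CPM in Control. Per kb of exon, St6gal1 averaged 16.0 CPM in OcKO and 12.7 CPM in Control. By the means of that measure St3gal5 stood above St6gal1 in Control, at 16.8 CPM per kb. In OcKO it stood below St6gal1, at 5.76 CPM per kb. The Control libraries of these genes overlapped per kb, and the rule chose St3gal5 for a low OcKO level.

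Of 14 other tested members of the ARID family, 9 had negative log2 fold changes, against 49.2% of all tested genes. Of these 14, edgeR called 0, limma voom 0 and DESeq2 2 lower, where DESeq2 called 1.69% of all tested genes lower. At an unadjusted p under 0.05 edgeR had 4 lower and 1 higher, against 5.21% lower and 5.93% higher of all tested genes. Their median log2 fold change was -0.45, or -0.29 with library size alone, which moves the median of all tested genes by 0.17. Arid1b, a subunit of the BAF chromatin remodelling complex, had 94.1, 100.9 and 147.7 CPM in OcKO replicates 1 to 3, against 372.6, 192.5 and 218.4 CPM in Control replicates 1 to 3 (edgeR log2 fold change -1.36 with SE 0.29, adjusted p = 0.120). Its groups did not overlap. Arid1a, the alternative subunit of that complex, had 72.03, 92.1 and 131.2 CPM in OcKO and 197.9, 142.6 and 145.5 CPM in Control (edgeR log2 fold change -0.89 with SE 0.25, adjusted p = 0.210). The groups of Arid1a did not overlap either.

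Jarid2, a cofactor of the Polycomb repressive complex PRC2, averaged 155.2 ± 36.2 CPM in OcKO and 228.7 ± 27.7 CPM in Control (edgeR adjusted p = 0.263). Arid5b averaged 101.6 ± 23.5 CPM in OcKO and 146.9 ± 27.1 CPM in Control (adjusted p = 0.279), and Arid5a averaged 46.6 ± 18.0 CPM in OcKO and 21.9 ± 4.64 CPM in Control (adjusted p = 0.424). The closest relatives of Arid3a had higher means in OcKO, with overlapping groups. Arid3b averaged 52.8 ± 13.9 CPM in OcKO and 36.7 ± 8.90 CPM in Control, and Arid3c averaged 17.04 ± 4.33 CPM in OcKO and 10.3 ± 5.77 CPM in Control (SD, n = 3 each).

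**Figure D4:**
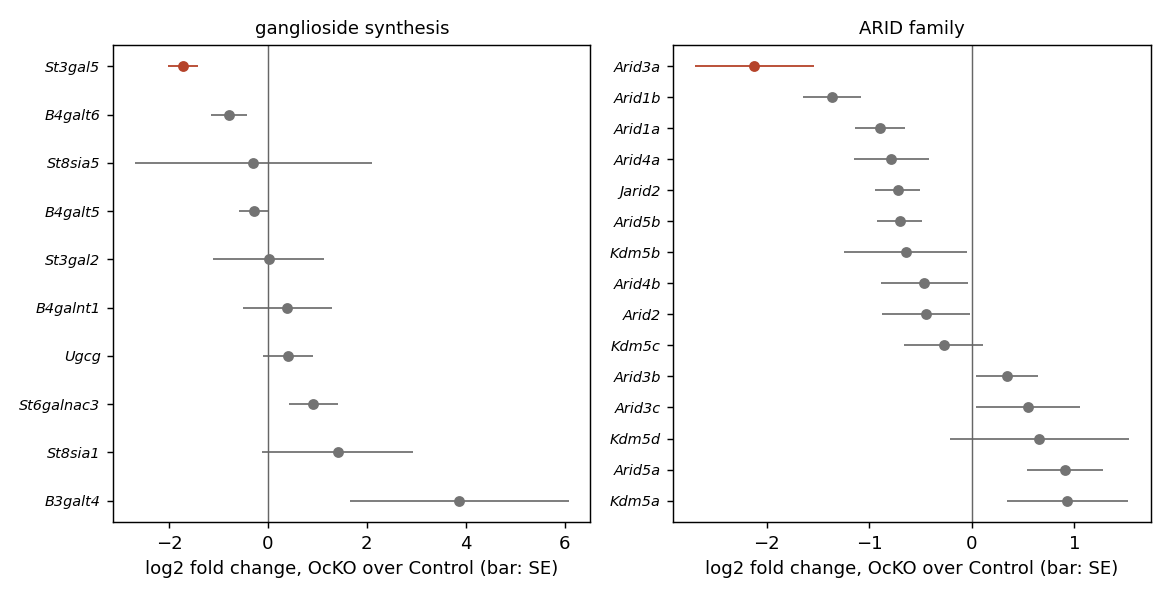
Log2 fold change of OcKO over Control (x axis, linear in log2 units) with its SE from edgeR for the tested genes of ganglioside synthesis (left) and the ARID family (right), 1 gene a row, with St3gal5 and Arid3a in red. St3gal5 is at -1.72, and the other genes of its pathway lie on both sides of 0. Most of those others have a Control mean under 10 CPM. Arid3a is at -2.12, followed by Arid1b at -1.36.

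Of the 13 tested genes of the E2F family and its Rb partners, edgeR called 0, limma voom 0 and DESeq2 1 higher, E2f7, a repressor of the family, where DESeq2 called 2.97% of all tested genes higher. At an unadjusted p under 0.05 edgeR had 1 lower, E2f2, and 1 higher, E2f7, against 5.21% lower and 5.93% higher of all tested genes. E2f7 had 0 counts in each Control library and averaged 3.84 ± 2.90 CPM in OcKO. E2f2 averaged 37.04 ± 2.51 CPM in OcKO and 52.7 ± 13.1 CPM in Control (edgeR adjusted p = 0.391; SD, n = 3 each). E2f1, the partner of human ARID3A, averaged 60.3 ± 18.9 CPM in OcKO and 48.9 ± 9.26 CPM in Control.

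Of 17 other genes with Prr symbols, which share a name rather than a sequence family, edgeR called 0, limma voom 0 and DESeq2 2 lower, Prr18 and Prr14l, where DESeq2 called 1.69% of all tested genes lower. At an unadjusted p under 0.05 edgeR had the same 2 lower and 0 higher, against 5.21% lower and 5.93% higher of all tested genes. Prr14l averaged 62.2 ± 10.5 CPM in OcKO and 111.3 ± 17.3 CPM in Control (SD, n = 3 each; log2 fold change -1.004, SE 0.24, adjusted p = 0.154 in edgeR). Over the 17 genes, the median log2 fold change was -0.12, or 0.04 with library size alone.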

How the data were processed

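RNA was measured by sequencing in 3 OcKO and 3 Control libraries, made with a NEBNext low-input kit per the labels' protocols. The authors deposited raw counts of reads per gene, as a table of the series and as a file per sample, which differed in 0 values. The tools listed in the submitters' processing notes are Trimmomatic 0.36, STAR 2.5.2b and Subread 1.5.2 (featureCounts), with the build GRCm38. Strandedness and the handling of multiply mapped reads were not given there. Per the file headers, each count comes with the gene's exonic length.

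Levels are counts per 1000000 counts of the library (CPM), and per kb of exonic length where that is stated. Ranks among genes are by CPM. Counts were fitted with edgeR 4.0.16 in R 4.3.3 (TMM, filterByExpr, quasi-likelihood test) over 16060 genes, with Benjamini-Hochberg adjustment over all of them. Fold changes are OcKO over Control, and the SE divides the size of the log2 fold change by the root of the F statistic. Alternatives were DESeq2 1.42.0 on the same genes, limma 3.58.1 voom, other scalings and filters, a replicate block and each library left out. The fit was tested on simulated counts.

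The genes and lists were chosen with earlier results of these data known. The naming rule took the 3 genes, the 5 just outside the threshold, and any on a list; neighbours, added families and genes named in them were chosen afterwards. Of the genes past the threshold in the closing section, 1 is not reported here. Each library is 1 mouse. The floor at a count of 0 covers counting error alone: without molecular identifiers, reads may repeat a molecule.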

Additional observations from a re-analysis of the deposited data

How the results depend on the processing

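The number of genes that met the rule, 3, moved under every alternative. It was 8 with TMM-scaled CPM, 7 with DESeq2 size factors, 6 at a Control minimum of 5 CPM, 1 at 20 CPM, 0 at a share of 0.4, 17 at a share of 0.6, and 10 to 61 with each library left out in turn. Of the 3 genes, edgeR called 0, DESeq2 called 2 and every other fit 0, leave-one-out fits included (0 to 0). Over all tested genes edgeR called 1 lower, DESeq2 272, a minimum of 5 CPM in 3 libraries 8, the replicate block 0 and fits without 1 library 0 to 2. The median log2 fold change of the 3 genes, -2.12, lay between -2.54 (without OcKO replicate 2) and -1.83 (without OcKO replicate 3), and the cause was not tested. With the replicate block this median was -2.23; same-numbered libraries did not deviate together (r of -0.045 to -0.037 over 3 pairs), and 0 of 3 OcKO libraries correlated best with their own number. At these depths 1 count is worth 0.0224 to 0.0276 CPM, which is below the SD between mice of each of the 3 genes.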

Other observations

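In 14 genes the highest OcKO library lay between 0.5 and 0.6 of the lowest Control library. Besides the 5 just outside the threshold these were 9, of which 8 are named here, after their values were seen and as a description. Spry4, a feedback inhibitor of receptor tyrosine kinase signalling, had 262.3, 476.9 and 452.8 CPM in OcKO replicates 1 to 3, against 1090, 1068 and 859.0 CPM in Control replicates 1 to 3. Igsf3, of the immunoglobulin superfamily, had 102.8, 143.7 and 132.7 CPM in OcKO and 391.8, 321.1 and 239.9 CPM in Control. Both were low in each OcKO library, with OcKO replicate 1 lowest.

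Dab2, an endocytic adaptor, averaged 56.9 ± 10.1 CPM in OcKO and 129.2 ± 14.9 CPM in Control. Sema5a, which encodes a semaphorin, averaged 54.0 ± 6.11 CPM in OcKO and 120.3 ± 17.3 CPM in Control. Adam9, a membrane metalloprotease gene, averaged 11.2 ± 1.64 CPM in OcKO and 31.0 ± 10.7 CPM in Control (SD, n = 3 each). Pgap1, Cmtm8 and Stk32b were also among the 9.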
